A study of Mus musculus with 21 samples.

Results

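The transcription factors described here are 8 genes that mark or pattern the posterior embryo: the primitive streak and endoderm regulators T, Mixl1, Eomes, Gsc and Foxa2, and the caudal homeobox genes Cdx1, Cdx2 and Cdx4. They were found by symbol among the 31053 gene identifiers of the deposited tables, and all 8 had 1 row each. Their reads were counted by bulk mRNA sequencing in 21 libraries of E14Tg2a, mouse embryonic stem cells from a male embryo of 129 background. The cells carry a GFPd2 reporter on 1 allele of the REX1 locus, and all groups share that reporter.

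The 21 libraries form 7 groups of 3, each named by its medium and a passage code. The starting group is 2i+LIF PO, taken here as the zero-passage cells that the study's design text mentions. The cultured groups are 2i+LIF, CH+LIF and LIF alone, each sampled at LP and at HP. The design text gives 1 and 2 months of culture, but the labels do not say which of LP and HP is the longer, so the codes are kept as they stand. CH is CHIR99021, which blocks glycogen synthase kinase and so stabilises beta-catenin, and PD is a MEK inhibitor that blocks ERK signalling. Together they are called 2i. LIF, leukaemia inhibitory factor, signals through STAT3. All cells grew in NDiff227 basal medium, first with both inhibitors and then with drugs added and withdrawn in turn at passages, and which drugs were present at harvest is known only from the group name. The labels do not say that replicates were separate cultures, so p-values measure only the spread between these samples, which may be technical.

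In the gastrulating embryo, Wnt/beta-catenin and Nodal signals turn on the T-box genes T (Brachyury) and Eomes and the homeobox genes Mixl1 and Gsc in the primitive streak, the site where mesoderm and endoderm form. Foxa2, a forkhead factor, marks the anterior streak and its endoderm. The Cdx genes act downstream of Wnt signals, regulate Hox genes and set posterior identity, and Cdx2 also specifies the trophectoderm of the blastocyst. Naive embryonic stem cells normally hold all of these genes at low levels.

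The libraries held 1132126 to 3783043 counts in genes, with a median of 1763531, and levels are given as CPM, the counts scaled to a common library size. Marker genes of pluripotent cells were present in every library, at a summed level of 3142 to 7611 CPM over 14 genes. Replicate 1 of 2i+LIF LP, with 31.7% of its counts in Gm42418, and replicate 1 of 2i+LIF PO, with 39.1% in mitochondrial genes, correlated least with their replicates (mean r of 0.787 and 0.830, against 0.857 to 0.944 for the others). The 3 PO libraries carry a different run name from the 18 cultured libraries, and in any comparison with PO the run and the group cannot be told apart. The 12 ERK target genes summed to 278 to 370 CPM in the libraries labelled LIF HP, below the 522 to 778 CPM of those labelled 2i+LIF HP, whose medium has the MEK inhibitor by its name. At LP the sums overlapped, with 390 to 943 CPM (median 883) in 2i+LIF and 719 to 888 CPM (median 833) in LIF. CH+LIF HP, whose name lacks the MEK inhibitor, had 704 to 823 CPM. There 3 of 10 tested ERK targets were higher than in 2i+LIF HP and none lower, beside 2.02% of all genes called in either direction. Groups are called here by their labels alone, and whether the labels are right was not tested.

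The results turn on T, Cdx1 and Cdx2, and the 250 bases before the RefSeq start of T and of Cdx2 are shown because these genes were counted together in 1 group. They were read from the RefSeq promoter table of GRCm38.p6, which matched 6 of the 8 genes with 8 starts, and are written 5′ to 3′ on the gene's own strand. T lies on chromosome 17 (8434423 to 8442496, plus strand, ENSMUSG00000062327) and its shown stretch is chr17:8434173-8434422. Cdx2 lies on chromosome 5 (147300805 to 147307270, minus strand, ENSMUSG00000029646) and its stretch is chr5:147307250-147307499, since the RefSeq start lies slightly inside the GENCODE gene. Capitals mark a match to CTTTGA, the core bound by the TCF/LEF partners of beta-catenin, on either strand.
T: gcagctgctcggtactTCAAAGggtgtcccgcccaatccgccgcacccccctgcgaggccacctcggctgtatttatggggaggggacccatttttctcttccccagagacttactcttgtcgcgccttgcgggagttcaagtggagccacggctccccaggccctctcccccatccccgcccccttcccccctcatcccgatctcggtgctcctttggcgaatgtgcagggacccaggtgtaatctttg
Cdx2: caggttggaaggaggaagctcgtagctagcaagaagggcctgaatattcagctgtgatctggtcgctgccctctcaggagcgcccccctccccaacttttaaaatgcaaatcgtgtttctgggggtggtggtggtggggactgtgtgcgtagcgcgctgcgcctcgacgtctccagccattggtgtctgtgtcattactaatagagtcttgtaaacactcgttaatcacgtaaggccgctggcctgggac

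The stretch before T held 1 TCF/LEF match, 234 bases before the start, and 1 match to the Cdx site TTTATG, 178 bases before it, with a GC content of 62.8%. The stretch before Cdx2 had a GC content of 55.2% and held none of the 4 motifs searched on both strands, which were also the T-box motif GGTGTGA and the STAT site TTCNNNGAA. Nor did the stretches before Eomes, Gsc, Foxa2 and Cdx4. Of 32841 mouse promoter stretches of this length, 13.8% held CTTTGA, 10.8% TTTATG, 7.02% TTCNNNGAA and 3.33% GGTGTGA. The motifs do not overlap one another at the matches in T, and a match is a string of letters, not a measured binding site.

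Of the 8 genes, T, Eomes, Cdx1 and Cdx2 passed the filter on low counts (5.67 CPM in at least 3 libraries) and entered the fit over 10643 genes. Mixl1 (27 counts over the 21 libraries), Gsc (77), Foxa2 (24) and Cdx4 (15) did not. T and Cdx2 passed only through the 3 libraries of 2i+LIF HP, so they had to differ from the rest, and their entry into the tests rests on the group in which they were high. In bulk RNA, fewer cells with a transcript and less transcript per cell cannot be told apart, and this holds for every level below.

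**Figure D1:**
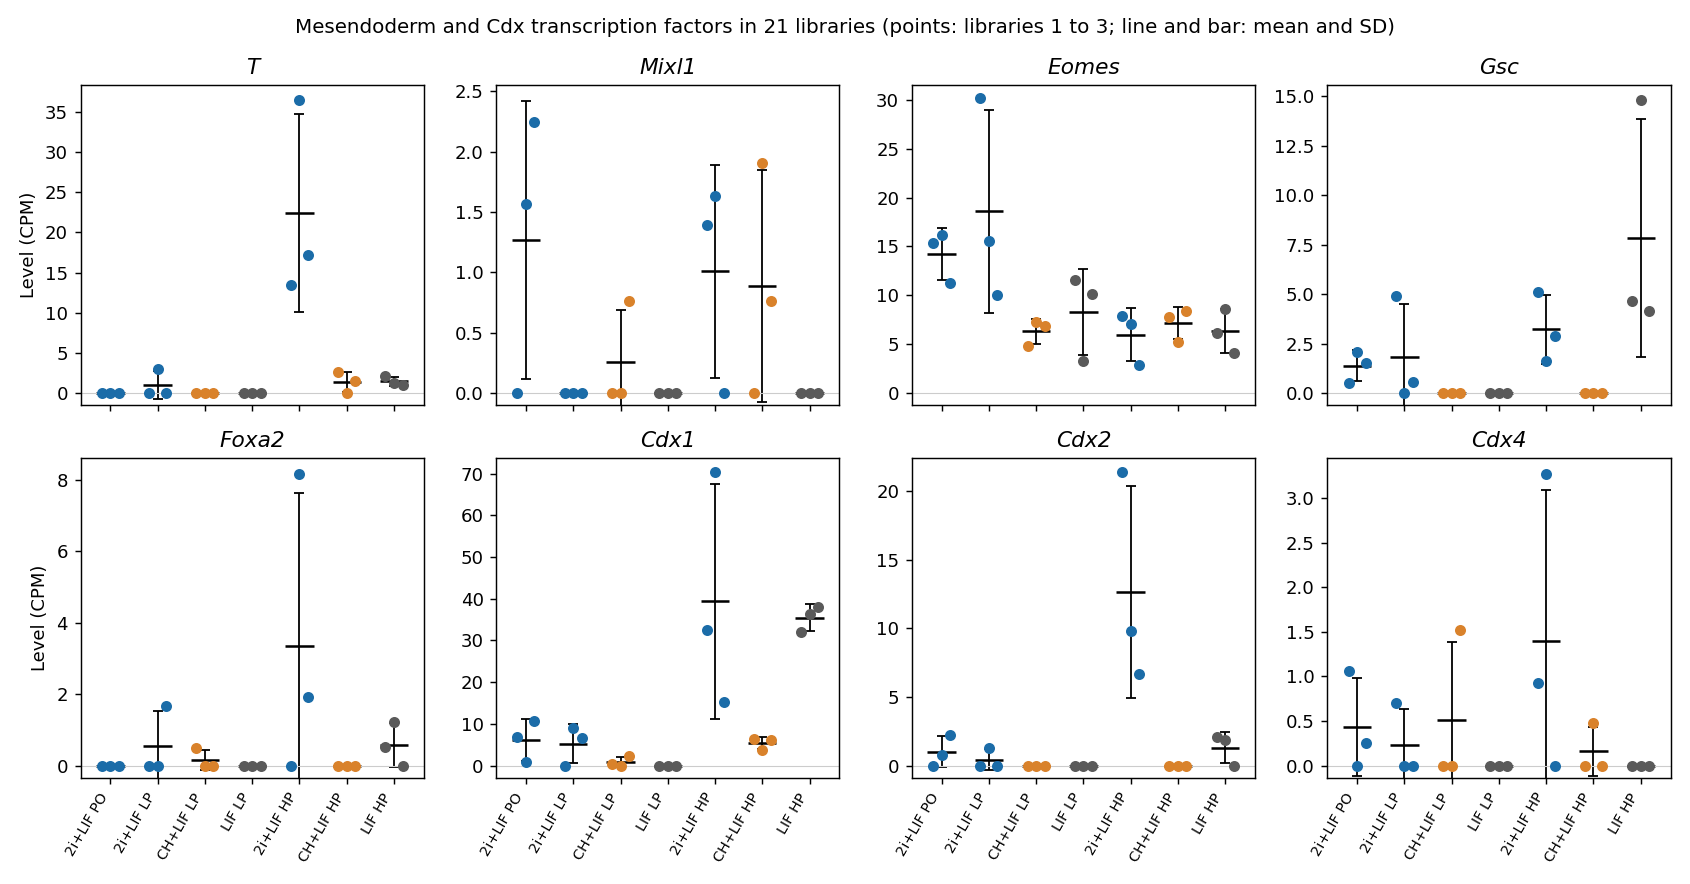
Level of each of the 8 genes in CPM (vertical axis, linear, its own range per gene) in the 7 groups, with 1 point per library and the mean and SD as line and bar. T and Cdx2 stand above the other groups only in 2i+LIF HP, Cdx1 in 2i+LIF HP and LIF HP, Gsc is highest in 1 LIF HP library at 14.8 CPM, and Eomes has counts in all 21 libraries.

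T, the T-box gene that defines nascent mesoderm, was counted in all 3 libraries of 2i+LIF HP, at 13.5, 36.5 and 17.3 CPM (29, 67 and 18 counts). Elsewhere it was at 2.06, 1.23 and 1.03 CPM in LIF HP, at 2.6, 0 and 1.52 CPM in CH+LIF HP, and at 0, 3.01 and 0 CPM in 2i+LIF LP. It had no count in any library of 2i+LIF PO, CH+LIF LP or LIF LP. The lowest 2i+LIF HP library thus lay above the highest of the other 18, and 114 of the 134 counts of T came from that group.

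Across the 6 cultured groups the levels of T differed (edgeR's quasi-likelihood test, adjusted p = 0.0004), beside 13.1% of all tested genes called in the same joint test. T in 2i+LIF HP (22.4 ± 12.4 CPM, SD, n = 3) was higher than in 2i+LIF LP (1.00 ± 1.74) by 4.21 on the log2 scale (SE 1.03, edgeR adjusted p = 0.0235), and the pooled counts gave a ratio of 19.3 with a 95% counting interval of 9.09 to 49.2. Against LIF HP the pooled ratio was 19.0 (8.92 to 48.3), with a log2 difference of LIF HP minus 2i+LIF HP of -3.85 (SE 1.03, edgeR adjusted p = 0.0411). Against CH+LIF HP it was 19.6 (8.73 to 54.5), with a log2 difference of -4.06 (SE 1.05, edgeR adjusted p = 0.0464). The 3 contrasts share the 2i+LIF HP libraries and so repeat 1 high group.

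The pairwise calls of T sat near the threshold. The call against 2i+LIF LP ended without 2i+LIF LP replicate 1 (edgeR adjusted p = 0.0551) or 3 (0.0739), without 2i+LIF HP replicate 2 (0.148) or 3 (0.0642), and when only the groups compared were fitted (0.109). The call against LIF HP ended without any single library of 2i+LIF HP (0.0586, 0.167 and 0.0810 for replicates 1 to 3) or of LIF HP (0.0943, 0.174 and 0.161), and also without CH+LIF LP replicate 2 (0.0502), LIF LP replicate 1 (0.05003), or CH+LIF HP replicate 1 (0.0527) or 3 (0.0573). The call against CH+LIF HP held under 11 of 28 alternatives and ended without any single library of CH+LIF HP (0.1002, 0.250 and 0.188) or 2i+LIF HP (0.0611, 0.242 and 0.111), with values of 0.0502 to 0.0719 without PO replicate 3 or any 1 library of CH+LIF LP, LIF LP or LIF HP. With the replicate block it was 0.0735. The joint difference of T held under all 28 alternatives, with adjusted p at most 0.0107, and the direction of each pairwise difference was the same in all of them. T passed the filter only through 2i+LIF HP, so tests that involve this group describe T and support nothing further.

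Eomes, the T-box gene of the early streak, definitive endoderm and trophoblast, did not follow T. Its counts came from all 21 libraries, 408 in total, at 15.3, 16.2 and 11.2 CPM in 2i+LIF PO and at 30.2, 15.5 and 10.1 CPM in 2i+LIF LP. In 2i+LIF HP it was at 7.90, 7.09 and 2.88 CPM, all 3 below every library of 2i+LIF LP. The other cultured groups had means of 6.31 to 8.33 CPM and overlapped one another.

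No comparison called Eomes. The joint test over the cultured groups gave an edgeR adjusted p of 0.120, and 2i+LIF HP against 2i+LIF LP gave a log2 difference of -1.56 (SE 0.54, edgeR adjusted p = 0.112), the opposite sign to T. Replicate 1 of 2i+LIF LP, the library with 31.7% of counts in Gm42418, held the highest Eomes level of all. Eomes (chromosome 9, 118478212 to 118486132) overlaps Gm33460 on the other strand, and whether the counting used strand is not given in the sources used here.

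Gsc, the homeobox gene of the organizer and anterior streak (chromosome 12, 104471209 to 104473330), was counted mainly in LIF HP and 2i+LIF HP. It was at 4.64, 14.8 and 4.12 CPM in LIF HP (9, 24 and 4 counts) and at 5.11, 1.64 and 2.88 CPM in 2i+LIF HP. It had no count in any library of CH+LIF LP, LIF LP or CH+LIF HP, while 2i+LIF PO had 0.528, 2.09 and 1.5 CPM and 2i+LIF LP 4.91, 0 and 0.559 CPM. The libraries of LIF HP thus did not overlap those of the 3 groups at 0, nor those of PO.

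The pooled Gsc counts of LIF HP (37) were at least 10.7-fold higher than in LIF LP and at least 10.9-fold higher than in CH+LIF HP, taking a group without counts at a floor of 3. Without LIF HP replicate 2, which held 24 of the 37 counts, these bounds were 5.81-fold and 5.92-fold. Gsc missed the filter, since 2 libraries passed the cutoff. With no filter on low counts (18931 genes) edgeR gave it an adjusted p of 0.00287 for LIF HP against LIF LP, where 6.84% of genes were called, and 0.0113 for LIF HP against CH+LIF HP, where 1.72% were called. The joint test over the cultured groups then gave 1.32e-05, beside 12.8% of genes called. Leaving out the filter also changed the values of genes that had passed it. In LIF HP against LIF LP, the edgeR adjusted p of Cdx1 went from 0.000385 to 3.16e-14 and that of Eomes from 0.712 to 0.862. When 1 library was left out, the filter needed 2 libraries. Gsc could then enter the fit through the 2 past the cutoff, LIF HP replicate 2 and 2i+LIF HP replicate 1. Both belong to the groups where it was highest, so the calls of these fits describe Gsc and support nothing further. Gsc was then called in LIF HP against LIF LP in 17 of 21 such fits (not without LIF HP replicate 2, 2i+LIF HP replicate 1, or LIF LP replicate 1 or 2), in LIF HP against CH+LIF HP in 3 of 21, and in the joint test in 19 of 21 (not without LIF HP replicate 2 or 2i+LIF HP replicate 1). LIF HP against 2i+LIF HP gave a pooled ratio of 1.87 (95% counting interval 1.03 to 3.54), but the unfiltered fit over libraries did not call it (log2 difference 1.23, SE 1.09, edgeR adjusted p = 0.691).

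Foxa2 and Mixl1 stayed near the detection limit. Foxa2, the forkhead factor of endoderm and node, had 17 of its 24 counts in 2i+LIF HP, at 0, 8.18 and 1.92 CPM, so 1 library held 15 of them. With no filter it was called for 2i+LIF HP against PO (edgeR adjusted p = 0.0496, at least 12.3-fold, beside 7.58% of genes called), and that call rests on the same library. Mixl1, the paired-type homeobox gene of the streak, was highest at 2.24 CPM in 1 PO library and had no count in 2i+LIF LP, LIF LP or LIF HP. With no filter, edgeR called Mixl1 in no comparison, and its lowest adjusted p was 0.228.

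Cdx1, a direct target of Wnt and retinoid signals in the posterior embryo (chromosome 18, 61018862 to 61036199), was the most abundant of the 8 genes per length in 2i+LIF HP and in LIF HP. It stood at 32.5, 70.3 and 15.3 CPM in 2i+LIF HP and at 31.9, 36.3 and 38.1 CPM in LIF HP. CH+LIF HP had 6.49, 3.82 and 6.09 CPM, 2i+LIF PO 6.86, 0.784 and 10.7, and 2i+LIF LP 0, 9.04 and 6.71. CH+LIF LP had 0.484, 0 and 2.28 CPM, and no library of LIF LP had a count. Both high groups were HP groups, and their libraries did not overlap those of the other 5.

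**Figure D2:**
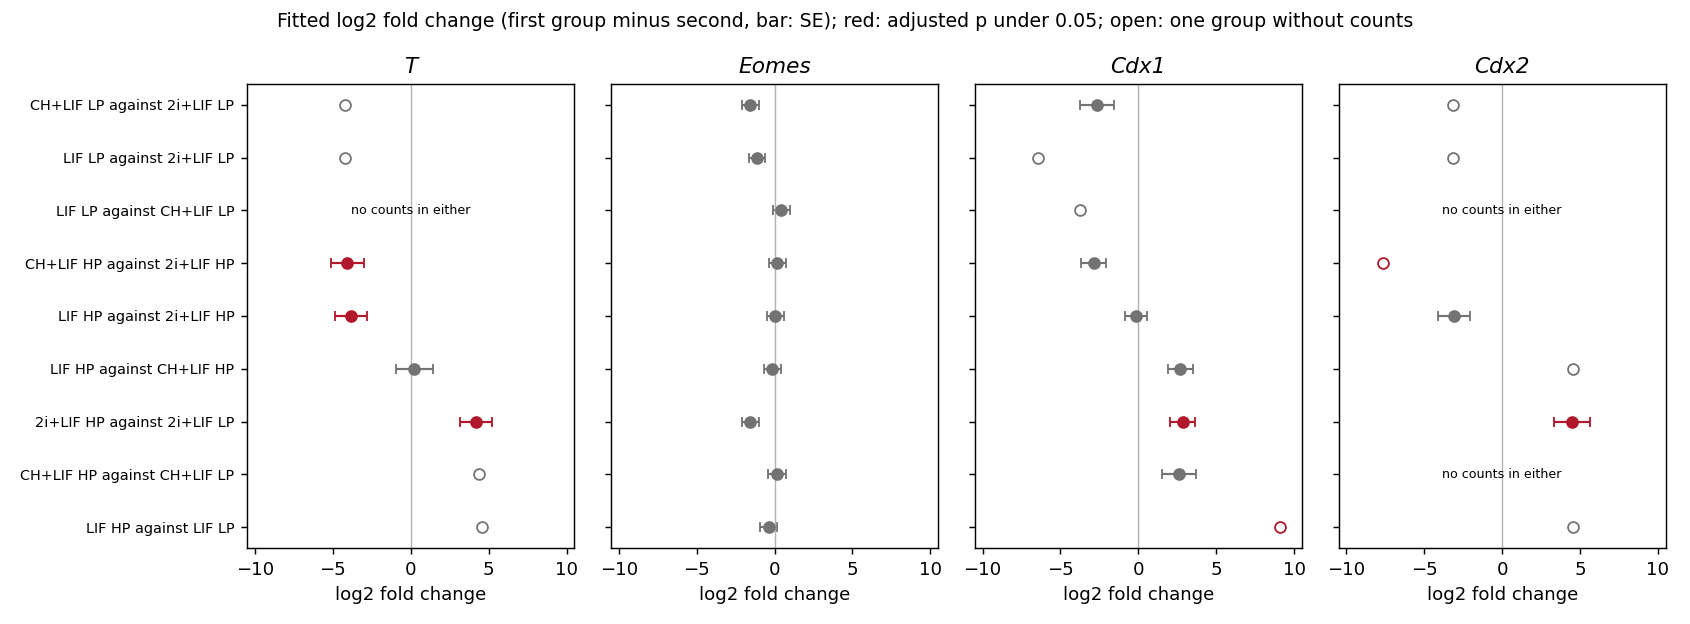
Fitted log2 fold change (horizontal axis, first group minus second, with its SE as a bar) of the 4 tested genes in each pairwise comparison between cultured groups (vertical axis). Red points had an adjusted p under 0.05, and open symbols have a group without counts, so their fitted size is not a bound; Eomes has no red point and T, Cdx1 and Cdx2 are red and above 0 for 2i+LIF HP against 2i+LIF LP.

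In LIF medium Cdx1 had no count at LP and 35.5 ± 3.18 CPM at HP (SD, n = 3), at least 45.7-fold higher (edgeR adjusted p = 0.000385). This was the 1 of 4 tested genes called in LIF HP against LIF LP, where 5.33% of all tested genes were called higher. It held under all 28 alternatives, with adjusted p between 3.16e-14 and 0.00413. No other pairwise call among the cultured groups held under all of its alternatives.

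In 2i+LIF medium Cdx1 was 39.4 ± 28.1 CPM at HP and 5.25 ± 4.69 CPM at LP, a log2 difference of 2.84 (SE 0.78, edgeR adjusted p = 0.0391) and a pooled ratio of 7.74 (95% counting interval 5.34 to 11.5). The call ended without 2i+LIF HP replicate 2 (0.246), which held 129 of the group's 215 counts. It also ended without 2i+LIF LP replicate 1 (0.0673), 2 (0.0502) or 3 (0.0697), without LIF HP replicate 1 (0.0512), and with only the groups compared (0.243). In CH+LIF medium the HP minus LP difference was 2.63 (SE 1.10, edgeR adjusted p = 0.814), on 26 and 4 counts.

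Whether the difference between HP and LP differed between media was tested as an interaction. For LIF against 2i+LIF the log2 difference of Cdx1 was 6.25 (SE 1.90, edgeR adjusted p = 0.182), and for LIF against CH+LIF 6.46 (SE 2.35, edgeR adjusted p = 0.284). With no filter on low counts, which also lowered the adjusted p of Cdx1 in LIF HP against LIF LP, these were called (0.00428 and 0.0325, beside 0.824% and 0.903% of genes). DESeq2 called the first. All of these values start from a LIF LP group without counts.

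At HP, Cdx1 in LIF and in 2i+LIF was not told apart (log2 difference -0.17, SE 0.69, edgeR adjusted p = 0.925). CH+LIF HP lay below both groups in all of its libraries, with log2 differences of -2.87 against 2i+LIF HP (SE 0.79, edgeR adjusted p = 0.0618) and of 2.70 for LIF HP against CH+LIF HP (SE 0.79, edgeR adjusted p = 0.0969). Neither passed the threshold. DESeq2 called Cdx1 in both. Over the 6 cultured groups the joint edgeR test gave Cdx1 an adjusted p of 4.92e-05, at most 0.000257 under any of 28 alternatives.

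Cdx2, which specifies trophectoderm and later the posterior body and gut, was counted at 21.4, 9.81 and 6.71 CPM in 2i+LIF HP (71 of its 93 counts). LIF HP had 2.06, 1.85 and 0 CPM, 2i+LIF PO had 0, 0.784 and 2.24, and 2i+LIF LP had 0, 1.29 and 0. CH+LIF LP, LIF LP and CH+LIF HP had no Cdx2 count in any library. As for T, the lowest 2i+LIF HP library lay above all other 18, but the order within 2i+LIF HP differed: replicate 1 was highest for Cdx2 and replicate 2 for T.

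The Cdx2 level of 2i+LIF HP (12.6 ± 7.73 CPM, SD, n = 3) exceeded that of CH+LIF HP at least 24.4-fold (edgeR adjusted p = 0.0137). That call ended without 2i+LIF HP replicate 1 (0.0579), which held 46 of the group's 71 counts. It also ended without any single library of CH+LIF HP (0.0692, 0.106 and 0.0755 for replicates 1 to 3). Against 2i+LIF LP the log2 difference was 4.48 (SE 1.16, edgeR adjusted p = 0.0333), and the pooled ratio of 28.1 has a 95% counting interval of 9.23 to 139 because 2i+LIF LP held 3 counts. This call ended without any single library of 2i+LIF HP (0.108, 0.0902 and 0.0655), without 2i+LIF LP replicate 1 (0.0804) or 3 (0.0991), without LIF HP replicate 1 (0.0516) or 2 (0.0509), in DESeq2 (0.0606), and with only the groups compared (0.105). LIF HP against 2i+LIF HP was not called (log2 difference -3.09, SE 1.04, edgeR adjusted p = 0.103). The joint test over the cultured groups gave Cdx2 an adjusted p of 0.000859 and held under all 28 alternatives, at most 0.0148. Cdx2 too passed the filter only through 2i+LIF HP, so tests that involve this group describe it and support nothing further.

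Cdx4, the X-linked Cdx gene (X, 103321398 to 103330592), had 15 counts in all. It reached 0.930, 3.27 and 0 CPM in 2i+LIF HP and at most 1.52 CPM in any other library, with no count in LIF LP or LIF HP. It did not pass the filter, and with no filter its lowest edgeR adjusted p in any comparison was 0.378.

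Counted per comparison, 3 of the 4 tested genes (T, Cdx1, Cdx2) were higher at HP than at LP in 2i+LIF, where 1.63% of all tested genes were called higher. Between CH+LIF HP and 2i+LIF HP, 2 were lower in the former (T and Cdx2, against 0.921% of genes), and in LIF HP against 2i+LIF HP 1 was lower (T, against 1.68%). Since T and Cdx2 entered the test through 2i+LIF HP, these counts describe the genes and support nothing further.

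In the remaining comparisons between cultured groups, edgeR called none of the 4 genes that passed the filter. CH+LIF LP against 2i+LIF LP had 3 at an unadjusted p under 0.05, as had 950 of all 10643 genes (0% of all genes called, none of the 8 by DESeq2). LIF LP against 2i+LIF LP also had 3, beside 1265 of all genes (0.489% called, Cdx1 by DESeq2), and LIF LP against CH+LIF LP 0, beside 501 (0.047% called, none by DESeq2). LIF HP against CH+LIF HP had 2, beside 1567 of all genes (1.47% called, Cdx1 by DESeq2), and CH+LIF HP against CH+LIF LP 2, beside 571 (0.0094% called, none by DESeq2). Each of the 3 interactions had 1, beside 691 of all genes for CH+LIF against 2i+LIF (0.0188% called), 1175 for LIF against 2i+LIF (0.15%) and 1244 for LIF against CH+LIF (0.423%), and DESeq2 called Cdx1 in that of LIF against 2i+LIF. With no filter, edgeR also called Cdx1 in LIF LP against 2i+LIF LP (adjusted p = 0.000117) and in LIF HP against CH+LIF HP (0.00108), besides the Gsc and interaction calls given above. In LIF LP, 7 of the 8 genes had no count in any library, and Eomes was the exception.

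**Figure D3:**
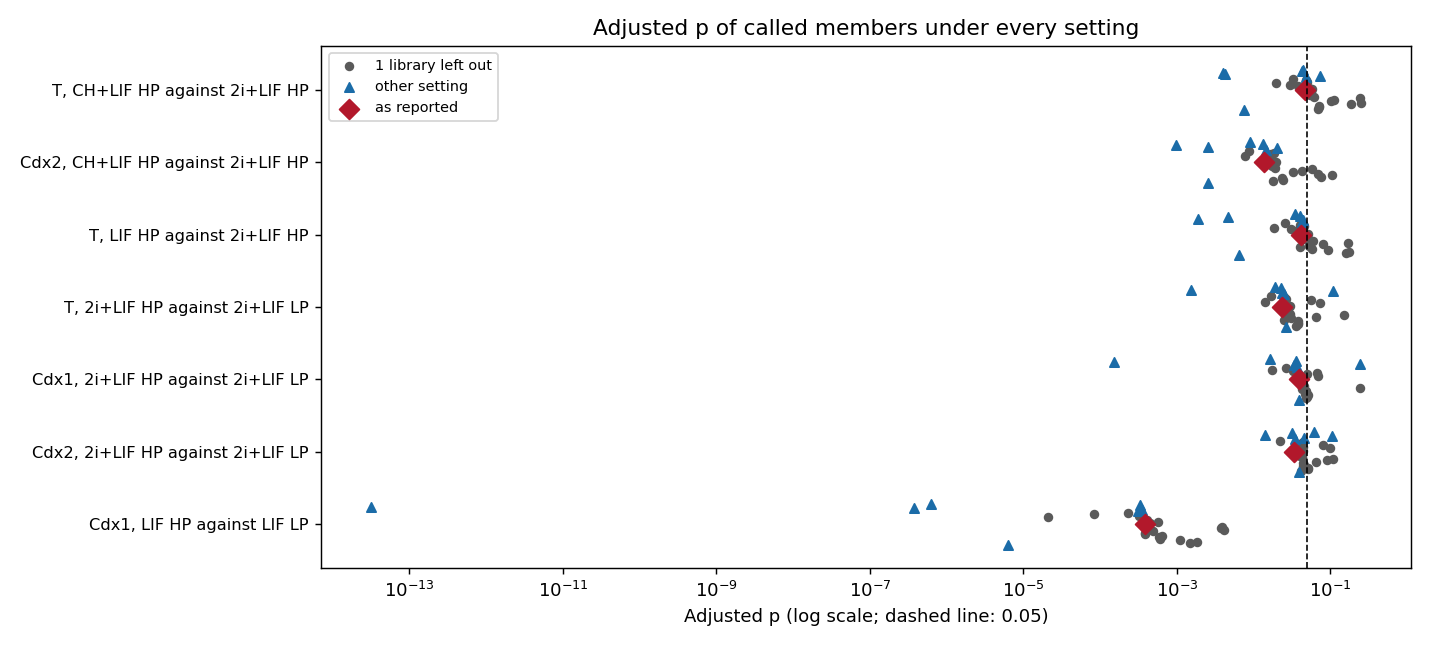
Adjusted p (horizontal log axis, dashed line at 0.05) of each called gene and pairwise comparison between cultured groups (vertical axis) under every setting. Joint tests and comparisons with PO are not drawn. The points of Cdx1 for LIF HP against LIF LP all lie left of the line, while those of T, Cdx1 and Cdx2 for 2i+LIF HP against 2i+LIF LP cross it.

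Against the starting cells, T, Cdx1 and Cdx2 were higher in 2i+LIF HP, where 5.8% of all tested genes were called higher. T was at least 82.4-fold higher (edgeR adjusted p = 0.00083, and at most 0.00702 under 28 alternatives). Cdx1 differed by 2.69 on the log2 scale (SE 0.75, edgeR adjusted p = 0.0231), which ended without PO replicate 2 (0.0774), without 2i+LIF HP replicate 2 (0.138) or with only the groups compared (0.0698). Cdx2 differed by 3.44 (SE 0.99, edgeR adjusted p = 0.0310), which ended without any single library of 2i+LIF HP (0.115, 0.0630 and 0.0741), without PO replicate 1 (0.0751) or 2 (0.113), in DESeq2 (0.0774) and with the replicate block (0.0575).

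Cdx1 was also higher in LIF HP than in PO by 2.53 (SE 0.75, edgeR adjusted p = 0.0305, beside 7.1% of genes called higher), a call lost without PO replicate 1 (0.0667) or 2 (0.0826) or any single LIF HP library (0.0517, 0.0901 and 0.0790). In LIF LP it was at least 9.17-fold lower than in PO (edgeR adjusted p = 0.0103, beside 6.11% called lower), at most 0.0480 under the 27 alternatives that tested it. In 2i+LIF LP (5.06% of all genes called), CH+LIF LP (8.31%) and CH+LIF HP (5.82%) against PO, edgeR called none of the 4 genes that passed the filter, and DESeq2 called none of the 8. At an unadjusted p under 0.05 there were 1, 3 and 2, beside 2347, 2558 and 2400 of all 10643 genes. With no filter, edgeR called Cdx1 in CH+LIF LP against PO (adjusted p = 0.0100). All of these differences are also differences between sequencing runs.

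Per kilobase of exon, the order in 2i+LIF HP was Cdx1 (22.5 CPM per kb), T (9.68), Cdx2 (5.59), Gsc (2.53), Eomes (1.43), Foxa2 (1.42), Cdx4 (0.713) and Mixl1 (0.440). Neighbours in this order overlapped within their SDs, with Cdx1 at ± 16.1, T at ± 5.34 and Cdx2 at ± 3.42 (SD, n = 3). In LIF HP Cdx1 (20.3 ± 1.81 CPM per kb) stood clear of Gsc (6.19 ± 4.74), followed by Eomes (1.52), T (0.623), Cdx2 (0.576) and Foxa2 (0.246), with no count of Mixl1 or Cdx4.

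Over the 21 libraries, log2 CPM of T correlated with that of Cdx2 (Pearson r = 0.842) and Cdx1 (0.704), and Cdx1 with Cdx2 (0.662). Eomes had r of -0.288 with T, -0.246 with Cdx1 and -0.151 with Cdx2. The genes share libraries, depth and many values at or near 0, so these are descriptions. Outside the 8, the patterns most like T were those of St8sia2 (r = 0.898), Cyp2c70 (0.893) and Zfp503 (0.882), and most like Cdx2 those of St8sia2 (0.880), Grsf1 (0.848) and Tlx2 (0.846). Cdx1 was most like C2cd4b (0.872), Gpnmb (0.839) and Wdr93 (0.835), and Eomes most like Nr1h2 (0.849), Nudt21 (0.817) and Zmynd11 (0.814).

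The Wnt/beta-catenin target list holds 16 genes besides the 8, of which 11 were tested. At HP against LP in 2i+LIF 4 were higher and 1 lower, beside 3.67% of all genes called in either direction, with a list median of 1.58 on the log2 scale against 0.007 for all genes. Sp5, a transcription factor induced directly by beta-catenin, was higher by 3.62 (SE 0.69, edgeR adjusted p = 0.00261), Lef1, a DNA-binding partner of beta-catenin, by 3.68 (SE 0.99, 0.0351), Nkd1 by 4.18 (SE 1.13, 0.0352) and Dkk1, a secreted Wnt inhibitor, by 6.72 (SE 1.23, 0.00326). The receptor Fzd7 was lower, with a log2 difference of -2.74 (SE 0.65, 0.0153). The summed level of the 16 was 547 to 995 CPM in 2i+LIF HP and 108 to 452 CPM in all other libraries.

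In LIF medium few genes of the same list were called. In LIF HP against LIF LP 2 of 11 were higher and none lower, beside 9.96% of all genes called in either direction, and the list median was 0.46. These were Sp5 by 5.81 (SE 1.10, edgeR adjusted p = 0.00176) and Axin2, the feedback scaffold of the pathway, by 3.53 (SE 1.01, 0.0274). Sp5 averaged 24.5 CPM in LIF HP, against 361 CPM for 2i+LIF HP, while Cdx1 averaged 35.5 and 39.4 CPM. Between these groups Sp5, Axin2, Lef1, Dkk1 and Ccnd1 were lower in LIF HP, 5 of 11 with none higher, beside 3.78% of all genes called. Sp5, Axin2 and Dkk1 were also lower under CH+LIF at HP than under 2i+LIF, 3 of 11 with none higher, beside 2.02% of all genes called. The list summed to 147.7 to 213 CPM in CH+LIF HP and 108 to 140 CPM in LIF HP, and its median log2 difference between them (LIF HP minus CH+LIF HP) was -0.06.

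**Figure D4:**
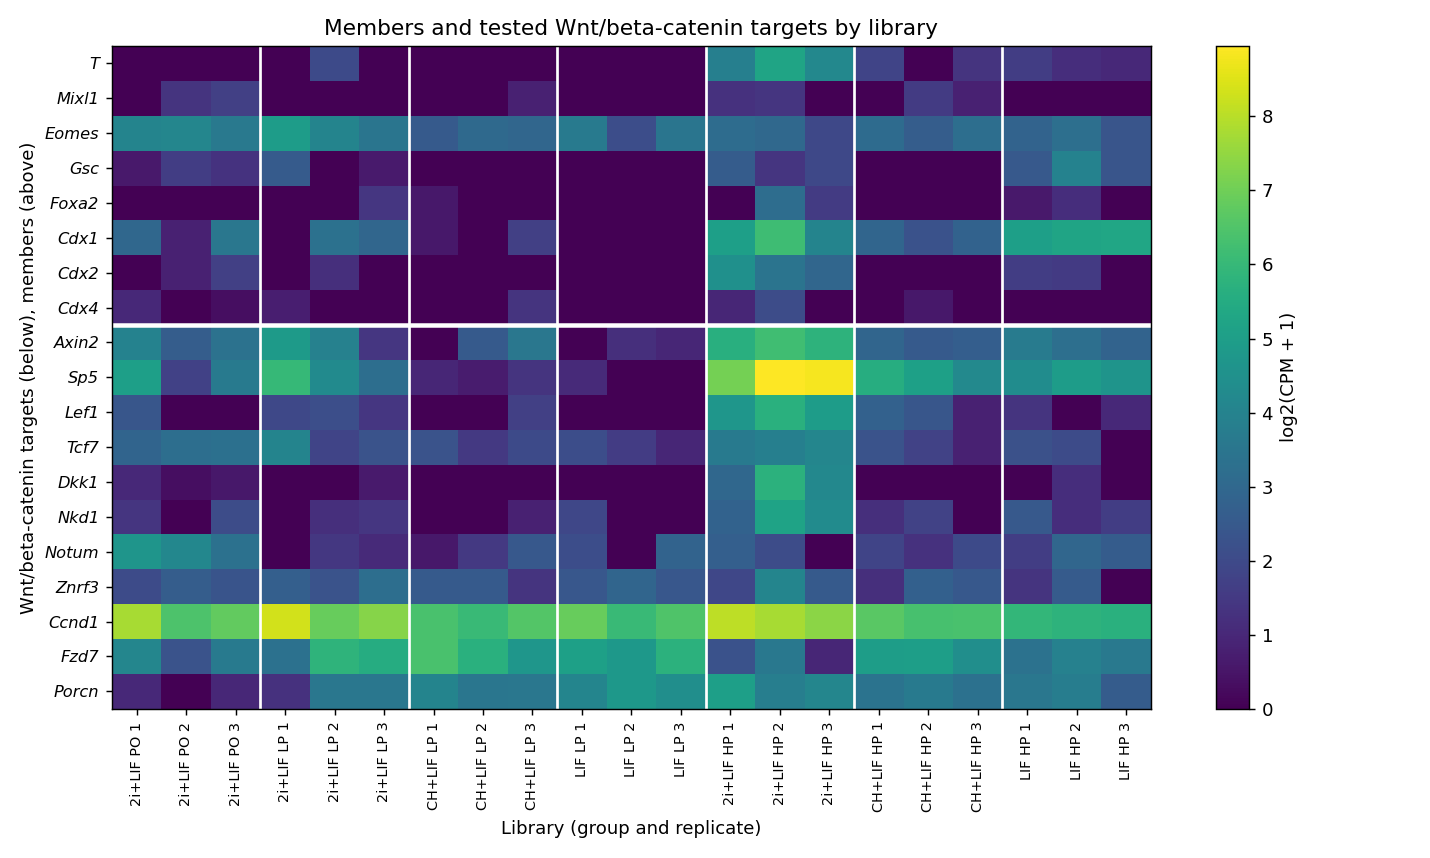
Level as log2(CPM + 1) (colour) of the 8 genes and the tested Wnt/beta-catenin targets (rows) in the 21 libraries (columns, by group). The 2i+LIF HP columns are the brightest for T, Cdx2, Sp5, Lef1 and Dkk1, and Cdx1 is bright in both 2i+LIF HP and LIF HP.

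Of 28 streak and mesoderm genes, 8 were tested, and of these none was higher in 2i+LIF HP against 2i+LIF LP and 4 were lower, beside 3.67% of all genes called in either direction, with a median of -2.23 against 0.007 for all genes. These were the Nodal feedback inhibitors Lefty2 (log2 difference -4.23, SE 0.67, edgeR adjusted p = 0.000493) and Lefty1 (log2 difference -2.79, SE 0.62, 0.0106), the Nodal co-receptor Tdgf1 (log2 difference -3.41, SE 0.45, 8.70e-05) and the T-box gene Tbx3 (log2 difference -1.91, SE 0.36, 0.00215). At HP, Tdgf1, Lefty1, Lefty2 and Tbx3 were higher with CH+LIF than with 2i+LIF, as were Nodal and Otx2, so 6 of 8 were called there with none lower, beside 2.02% of all genes called. The mesoderm genes Msgn1, Cer1 and Wnt3a had no count in any library, and Tbx6, Lhx1 and Mesp1 had 3, 3 and 4 counts in all.

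In LIF HP against LIF LP, where Cdx1 was higher, 4 of the 8 tested streak genes were lower and none higher (Lefty1, Lefty2, Otx2 and the activin antagonist Fst), beside 9.96% of all genes called in either direction, with a median of -2.27. In LIF HP against 2i+LIF HP 4 were higher (Nodal, Tdgf1, Lefty1, Lefty2) and Fst was lower, beside 3.78% of all genes called. Tdgf1 and Tbx3 are also counted among the pluripotent cell markers.

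The Hox and posterior genes, which Cdx factors help regulate in the embryo, are described by 2 of their members. Hoxb1, an anterior Hox gene of the B cluster, had 107 counts in 2i+LIF HP (26.4 ± 23.5 CPM, SD, n = 3), 9 in LIF HP, 1 in CH+LIF HP and none in PO or the LP groups. In LIF HP against LIF LP the posterior gene Hoxb9 was higher (3.84, SE 0.95, edgeR adjusted p = 0.0121), the 1 of 7 tested genes of its list called there, beside 9.96% of all genes in either direction, and Hoxb9 was also present in PO (19.5 ± 19.2 CPM).

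Cdx2 and Eomes are trophectoderm genes as well, so 14 other trophectoderm markers were summed. They reached 135 to 194 CPM in 2i+LIF HP, 174 to 222 in LIF HP, 175 to 233 in PO and 66.8 to 130 in the other 4 groups. No count was found for 2 of the 14 in 2i+LIF HP, 2 in LIF HP, 1 in PO, 1 in 2i+LIF LP and 3 or 4 in each remaining group. Without Tfap2c, the most abundant of them, the other 13 summed to 59.0 to 157.2 CPM in 2i+LIF HP, 48.7 to 70.1 CPM in LIF HP and 65.4 to 119 CPM in PO, and to 36.5 to 74.3 CPM in the other 4 groups. Elf5, a defining factor of the trophoblast stem state, had no count in any library, Gata2 had none in 2i+LIF HP, and Gata3 had 6 counts there. Of 8 tested markers, the keratins Krt7 and Krt18 were higher and Krt42 lower at HP than at LP in 2i+LIF, beside 3.67% of all genes.

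Pluripotent cell markers were lowest in 2i+LIF HP as a sum (3142 to 4194 CPM, all below the 4230 CPM of the lowest other library). Of the 14, 1 was higher (Dppa3) and 2 lower (Tdgf1, Tbx3) than at LP in the same medium, beside 3.67% of all genes. Against PO, 7 of the 14 were lower in 2i+LIF HP (Nanog, Esrrb, Tfcp2l1, Zfp42, Tbx3, Fgf4 and Tdgf1) and Dppa3 was higher, beside 10.6% of all genes called, with a list median of -1.36. Of the 14 primitive endoderm markers, 4 had no count in 2i+LIF HP and 2 or 3 had none in each other group. The 14 summed to 213 to 450 CPM in 2i+LIF HP and 498 to 758 CPM in 2i+LIF LP. Sparc, the most abundant of the 14, was not called between these groups, and the other 13 summed to 40.9 to 65.2 CPM in 2i+LIF HP and 47.5 to 89.8 CPM in 2i+LIF LP. Of 5 tested, Col4a1 was the 1 called, lower at HP (25 counts at LP and none at HP, edgeR adjusted p = 0.0244). The 16 definitive endoderm partners of Gsc and Foxa2 summed to 90.2 to 245 CPM in 2i+LIF HP, to 42.2 to 73.3 in LIF HP and to 404 to 685 in CH+LIF HP, where Gsc had no count. Trh carried that order, and without it the other 15 summed to 44.6 to 138 CPM in 2i+LIF HP, 19.6 to 34.5 in LIF HP and 59.4 to 83.0 in CH+LIF HP. The 12 ERK targets also moved between the groups in which T, Cdx1 and Cdx2 differed. Of 10 tested, 5 were lower and none higher in 2i+LIF HP against 2i+LIF LP (3.67% of all genes called), and 8 were lower and none higher in LIF HP against LIF LP (9.96%). Among the HP groups, CH+LIF had lower T and Cdx2 than 2i+LIF, while 3 ERK targets were higher and none lower (2.02%). LIF alone had lower T than 2i+LIF at HP, and there 2 ERK targets were lower and none higher (3.78%). The part of these cell types, of the ERK targets and of the lower pluripotency sum, in the levels of T, Cdx1, Cdx2 and Gsc was not tested.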

How the data were processed

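Gene counts per library were deposited by the authors as whole-number counts; per the submitters' processing notes, bcl2fastq, STAR 2.6.0a and HTSeq were used with mm10. The annotation and strand setting are not given in the sources used here. The 5 closing entries (unassigned reads) stayed out of library sizes: no feature took 8.46 to 25.8%, ambiguous 0.179 to 0.683% and not unique 20.8 to 35.4% of all entries. Symbols, positions and exon lengths came from GENCODE M21 (GRCm38), which matched 31011 of 31053 identifiers.

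All 21 libraries were fitted with edgeR 4.0.16 (R 4.3.3), with TMM scaling, filterByExpr, a quasi-likelihood test with 14 residual degrees of freedom, and Benjamini-Hochberg adjustment per comparison over 10643 genes at 0.05. The fit gave 15 pairwise comparisons, a joint test over the 6 cultured groups and 3 interactions. Each SE is the size of the log2 difference divided by the square root of its F statistic, not an SE given by the fit. Group means are of CPM on TMM-scaled library sizes, and log2 CPM for correlations used a prior count of 2. Pooled-count ratios are of total counts over total library counts, with exact binomial (Clopper-Pearson) 95% intervals or, against 0, a floor of 3 counts per group. Intervals and floors cover counting error only. The fits were tested on simulated data. Alternatives included DESeq2 1.42.0, its size factors, no filter, only the groups compared, the replicate block, removal of mitochondrial genes and Gm42418, and each library left out; leaving out both libraries that stand apart was added after seeing the data.

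All 8 members are named. For each tested member, the 3 most correlated other genes are named, and of each list up to 4 called genes with the largest changes or, where none passed, the most abundant, with a few more named after their values were seen. Some results of the Hox list are not reported here. The members and lists were chosen with earlier results of these data known.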

Additional observations from a re-analysis of the deposited data

How the results depend on the processing

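All called differences of T, Cdx1 and Cdx2 kept their direction under every alternative, and T, Cdx1 and Cdx2 in the joint test, Cdx1 in LIF HP against LIF LP and T in 2i+LIF HP against PO kept their call in all 28. T and Cdx2 passed the filter only through 2i+LIF HP, so for them the kept calls describe the genes and support nothing further. The number of the 8 genes called moved by more than 1.5 times, or from or to 0, as follows, from the value in the report. DESeq2 gave 1 for LIF LP against 2i+LIF LP (from 0), 1 for LIF HP against CH+LIF HP (from 0), 2 for LIF HP against LIF LP (from 1), 2 for LIF HP against PO (from 1) and 1 for the interaction of LIF with 2i+LIF (from 0). It moved 4 other counts by at most that: CH+LIF HP against 2i+LIF HP to 3 (from 2), 2i+LIF HP to 2 against 2i+LIF LP and against PO (from 3 each) and the joint test to 4 (from 3). No filter on low counts gave 1, 2, 2, 2 and 1 for the same 5, and 1 for CH+LIF LP against PO (from 0) and for the interaction of LIF with CH+LIF (from 0), and moved by at most that CH+LIF HP against 2i+LIF HP to 3, 2i+LIF HP against PO to 4 and the joint test to 4. Fitting only the groups compared gave 2 for LIF HP against 2i+LIF HP (from 1), 1 for LIF HP against CH+LIF HP, 0 for 2i+LIF HP against 2i+LIF LP (from 3), 0 for LIF LP against PO (from 1, where Cdx1 no longer passed the filter) and 1 for the interaction of LIF with CH+LIF. Leaving out both libraries that stand apart gave 1 for LIF LP against 2i+LIF LP, 2 for LIF HP against 2i+LIF HP, 2 for LIF HP against CH+LIF HP, 2 for LIF HP against LIF LP, 1 for CH+LIF LP against PO, 2 for LIF LP against PO and 1 for the interaction of LIF with 2i+LIF. Other than the fewer groups or genes fitted, the cause was not tested.

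The replicate block gave 1 for CH+LIF HP against 2i+LIF HP (from 2, T lost). The labels do not say what a replicate number shares, and all 3 same-number correlations passed 0.1 in 1 of 15 comparisons, 2i+LIF LP against PO (0.397, 0.345 and 0.179), where none of the 8 was called with or without the block.

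With each library left out in turn, the count ran from 0 to 3 for CH+LIF HP against 2i+LIF HP and for 2i+LIF HP against 2i+LIF LP, from 0 to 2 for LIF HP against CH+LIF HP and against PO, from 0 to 1 for LIF LP against 2i+LIF LP, LIF HP against 2i+LIF HP and CH+LIF LP against PO, from 1 to 2 for LIF HP against LIF LP, from 1 to 3 for 2i+LIF HP against PO and from 3 to 4 for the joint test. It stayed at 1 for LIF LP against PO and at 0 for the others. With 1 library left out the filter needed 2 libraries, so Gsc could enter, and it was the added gene in LIF HP against LIF LP (17 of 21 fits) and in the joint test (19 of 21). It entered through LIF HP replicate 2 and 2i+LIF HP replicate 1, where it was high, so these tallies describe Gsc and support nothing further. The 1132126 to 3783043 counts per library gave Mixl1 and Cdx4 27 and 15 counts in all, and neither was called under these settings.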
